A study of Mus musculus with 3 samples.

Results

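The genes described here encode subunits of the AMPA and NMDA receptors, and the data are the accessible chromatin peaks of midbrain dopaminergic neurons (DNs) at them. The 10 genes are *Gria1*, *Gria2*, *Gria4*, *Grin1*, *Grin2a*, *Grin2b*, *Grin2c*, *Grin2d*, *Grin3a* and *Grin3b*. Other subunit genes of these receptors were not analysed here. A peak was assigned to a gene when it overlapped the gene body, as annotated in GENCODE M21, or lay within 20 kb of it. By this rule 109 of the 55326 peaks of the list belonged to the genes, which is 0.197%. No peak belonged to more than 1 of them. Of these, 83 overlapped a gene body and 26 lay in a flank only.

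The peaks came from single-nucleus ATAC-seq (snATAC-seq), in which a transposase cuts open chromatin in nuclei and barcodes keep the nuclei apart. The nuclei were isolated from the ventral tegmental area (VTA) of male wild-type C57Bl/6Nl mice without a treatment, at 7 weeks in DN replicate 1 and 9 weeks in DN replicate 2. Both libraries were merged by the authors in 1 list of positions on mm10, in which every peak was 500 bp wide. A sample of mouse embryonic stem (mES) cells, the only other one in the series, was not analysed here. The list had no height or count for a peak and no value per library. It therefore gave no spread between replicates, no test was made, and the depth behind a single peak is unknown. A gene without a peak is one where none was called, and the list does not tell how open its chromatin was.

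The label was checked against marker genes. All 10 DN markers (*Th*, *Slc6a3*, *Slc18a2*, *Ddc*, *Foxa1*, *Foxa2*, *Lmx1b*, *Nr4a2*, *Pitx3* and *En1*) had a peak centred within 1 kb of a transcription start site (TSS), with 4 to 44 peaks in the gene and its flanks. The authors chose the nuclei by several of these genes, *Th* first, so that this is no independent check. None of 8 markers of pyramidal neurons, oligodendrocytes, astrocytes and microglia had a peak at a TSS, and they had 0 to 9 peaks in the gene and its flanks. The upper end was *Cx3cr1* of microglia, with 9 peaks in its gene body, and *Gfap* of astrocytes had 5 in its gene and flanks. The part of other cell types in the peaks at the receptor genes was not tested.

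AMPA and NMDA receptors are glutamate-gated ion channels made of 4 subunits each. AMPA receptors, built from the GluA subunits that the *Gria* genes encode, carry the fast excitatory current at most synapses. NMDA receptors need glutamate, a co-agonist and depolarization to open, and they admit calcium. Each contains GluN1, encoded by *Grin1*, with GluN2 or GluN3 subunits that set its conductance, kinetics and sensitivity to magnesium. Dopaminergic neurons of the VTA receive glutamatergic input through both receptors, and plasticity of their AMPA receptors has been studied widely in the context of drugs of abuse.

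Sequences are shown first for the longest element searched, at the start sites where it matched, although most peaks of these genes did not hold it. The repressor REST, which silences neuronal genes in other cell types, recognizes a long element called RE1. RE1 was searched on both strands as the words TTCAGCACC and GGACAGCGC, 2 bases apart, with up to 4 mismatches in their 18 letters. Among the peaks of the receptor genes 3 held a match, at *Gria2*, *Grin1* and *Grin2a*, each in the outer part of its peak and none in the central 250 bp, and they are shown in the direction of the element, with the letters that equal the element in capitals. The 2 bases between the words are in lower case throughout.
*Gria2* RE1 (chr3:80802989-80803008, plus strand): TTtAGCACCgcGGACAGCGC
*Grin1* RE1 (chr2:25319015-25319034, minus strand): TTCAGCACCtcGGACAGCaC
*Grin2a* RE1 (chr16:9993724-9993743, minus strand): TTgtGCACCtgGcACAGtGC

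Counted from 1 at the first base of the element, the 2 bases between the words included, *Gria2* departed from it by the substitution C3T and *Grin1* by G19A. *Grin2a* had 4 substitutions, C3G, A4T, G13C and C18T. The *Gria2* match lay upstream, with its nearest base 154 bp from the TSS. The *Grin1* match lay 61 bp downstream of the nearest TSS, and that of *Grin2a* 839 bp downstream. A match with at most 1 mismatch was rare in the list, at 15 of the 55326 peaks (0.0271%), and 2 of these 15 were the *Gria2* and *Grin1* peaks. This stricter limit was chosen after the matches had been seen. The elements searched, RE1 included, were picked for known links to these genes or to DNs.

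The 200 bases before the outermost TSS are shown for *Gria2*, which had a peak there, and for *Grin2c* and *Grin3b*, the only members without a peak near any TSS of their own. They run in the direction of transcription, and capitals mark a match to RE1 in *Gria2*, to the GC box GGGCGG in *Grin2c* and to the AP-1 word TGANTCA in *Grin3b*. None of these stretches overlapped an annotated exon.
*Gria2* (chr3:80802836-80803035, minus strand): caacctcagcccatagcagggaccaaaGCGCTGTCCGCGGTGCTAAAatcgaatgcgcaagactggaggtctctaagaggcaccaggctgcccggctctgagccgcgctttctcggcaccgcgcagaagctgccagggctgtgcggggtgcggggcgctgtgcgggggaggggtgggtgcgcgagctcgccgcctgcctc
*Grin2c* (chr11:115267244-115267443, minus strand): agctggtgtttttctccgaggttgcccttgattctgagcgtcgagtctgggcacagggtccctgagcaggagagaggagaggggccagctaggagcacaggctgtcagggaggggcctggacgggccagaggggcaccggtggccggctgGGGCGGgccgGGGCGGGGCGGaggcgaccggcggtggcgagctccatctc
*Grin3b* (chr10:79970515-79970714, plus strand): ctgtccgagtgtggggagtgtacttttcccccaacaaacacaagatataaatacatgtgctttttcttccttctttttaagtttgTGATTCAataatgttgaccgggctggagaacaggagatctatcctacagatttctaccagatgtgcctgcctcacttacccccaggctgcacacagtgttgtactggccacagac

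The *Grin2c* stretch held 3 GC boxes, 2 of them overlapping, although no peak was called there. Over the same 200 bases 0.354% of all protein-coding genes held an RE1 match, 39.7% a GC box and 4.63% an AP-1 word.

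Of the 10 genes, 8 had a peak centred within 1 kb of one of their TSSs, beside 56.4% of the 21755 protein-coding genes. This share rose with gene length, from 47.6% of genes under 30 kb to 70.2% at 30 to 100 kb, 76.4% at 100 to 300 kb and 82.9% over 300 kb. By the same classes it was 1 of 3, 1 of 1, 2 of 2 and 4 of 4 of the receptor genes, so that their count is near what genes of these lengths show. *Gria1*, *Gria2* and *Gria4* had one, as did *Grin1*, *Grin2a*, *Grin2b*, *Grin2d* and *Grin3a*. The genes have 21 TSSs of transcripts in the basic annotation, of which 18 had a peak centre within 1 kb and 12 were covered by a peak. All 10 genes had a peak in the gene body or within 20 kb, beside 76.6% of protein-coding genes, but this is the rule by which peaks were assigned and nothing is read from it. In the gene body 9 had a peak, beside 63.8% of all protein-coding genes and 83.2% of those with a peak in the body or within 20 kb. A start site with several peaks was the common arrangement: 7 of the 10 genes had at least 2 peaks near their own TSSs, beside 21.3% of protein-coding genes. Among genes with any TSS peak, 7 of the 8 receptor genes and 37.7% of all 12272 genes had at least 2. *Gria2* was the one with a single peak. These shares were not adjusted for gene length or for the number of TSSs.

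**Figure D1:**
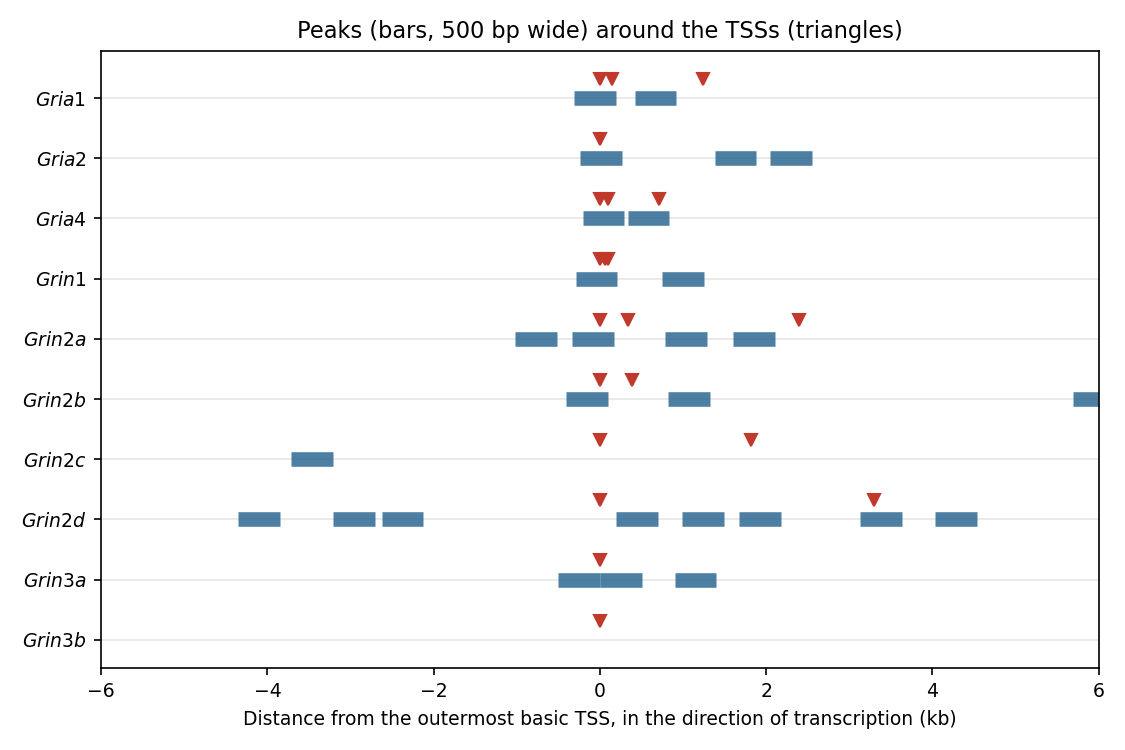
Each row is a gene, bars are its peaks of 500 bp and triangles are the TSSs of basic transcripts, against the distance from the outermost of these TSSs in kb in the direction of transcription. Peaks sit at the start sites of 8 genes, *Grin2a* has 4 within 1 kb of a TSS, *Grin2c* has none nearer than 3465 bp and *Grin3b* none within the range shown.

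Among the AMPA receptor genes, *Gria1* encodes GluA1, a subunit whose phosphorylation and insertion at synapses accompany long-term potentiation. It spans 319 kb (chr11:57011387-57330244, plus strand) and had 11 peaks, all in the gene body. A first peak was centred 59 bp upstream of its outermost TSS and a second 568 bp upstream of its innermost TSS. The other 9 peaks were intronic, 6 of them in intron 2 and 3 in intron 11 of the principal transcript. They left a stretch of 99.2 kb without a peak, or 31.1% of the gene, from 49.8% to 80.9% of its length.

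*Gria2* encodes GluA2, the subunit that, once its RNA is edited, makes AMPA receptors nearly impermeable to calcium. It spans 121 kb (chr3:80681450-80802835, minus strand) and had 4 peaks. A peak centred 15 bp downstream of the only TSS covered it, and 2 more lay 1633 and 2299 bp downstream, in intron 2 of the principal transcript and in an exon of another transcript. The fourth lay in intron 5, 77362 bp from the TSS. Between the start-site group and this peak, 75.1 kb, or 61.8% of the gene, had none.

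*Gria4* encodes GluA4, a subunit with fast kinetics. It spans 378 kb (chr9:4417896-4796234, minus strand) and had 5 peaks, the fewest per Mb of the members with a peak in the gene. A pair lay at its start sites, and the other 3 were in introns 5, 6 and 7, at 68.5% to 76.9% of the gene's length. The first 259 kb behind the start sites, 68.4% of the gene, held no peak.

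*Grin1* encodes GluN1, the subunit common to all NMDA receptors. It spans 28.0 kb (chr2:25291181-25319187, minus strand) and had 11 peaks, of which 5 overlapped the gene body. A peak centred 43 bp upstream of the outermost TSS covered its 3 TSSs, which lie within 92 bp. A second was centred 907 bp downstream of the nearest TSS, a pair lay in intron 3 in exons of other transcripts, and the fifth in the untranslated part of exon 20, the last. The 6 flank peaks were all near start sites of other genes, namely *Anapc2*, *Ssna1*, *Tmem210*, *Lrrc26*, the antisense gene *Grin1os*, *AA543186* and *Man1b1*.

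The GluN2 genes ranged from 5 to 22 peaks. *Grin2a*, whose subunit GluN2A gives fast channel closing, had the highest number of peaks of any member, with 22, all in its body of 428 kb (chr16:9567898-9995560, minus strand). The 4 peaks near its TSSs spanned 3.13 kb, and only 240 protein-coding genes (1.10%) had 4 or more. The other 18 were intronic: 8 in intron 3, 3 in intron 4, 6 in intron 5 and 1 in intron 11. In intron 5, 4 of them lay within 4.51 kb. The longest stretch without a peak was 76.7 kb, which at 17.9% of the gene was the smallest fraction among the 10.

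*Grin2b* encodes GluN2B, prominent early in development and a slow-closing partner. It is the longest member at 460 kb (chr6:135713233-136173511, minus strand) and had 15 peaks, all in the gene body. A pair lay at its start sites, where the antisense gene *Gm26653* also begins, and 1 lay in intron 4 near the start of the antisense gene *Gm14330*. The other 12 were intronic, and 3 of them in intron 2 lay within 4.79 kb. The last 110 kb of the gene, 23.9% of its length, held none.

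*Grin2c*, which encodes GluN2C, a subunit best known from cerebellar granule cells, spans 18.1 kb (chr11:115249169-115267243, minus strand) and had 5 peaks. In its body, 1 lay in intron 4 and 1 in the coding part of exon 15, the last. The 3 in the flanks lay inside *Tmem104*, inside *Fdxr* and near the start of *Fdxr*. The nearest peak centre was 3465 bp upstream of its outermost TSS and 5279 bp from its other TSS.

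*Grin2d* encodes GluN2D, the subunit with the slowest closing, found mainly in midbrain, diencephalon and interneurons. It spans 46.5 kb (chr7:45831883-45878378, minus strand) and had 20 peaks, 15 of them in the gene body. A run of 11 peaks, each at most 5 kb from the next, covered 18.1 kb from intron 6 past the start sites. It included all 3 peaks near its own 2 basic TSSs and 2 near the start of *Kdelr1*, which overlaps the outer end of the annotated gene. Further peaks lay in intron 10 and in the coding parts of exons 12 and 13. The 5 flank peaks lay near the starts of *Cyth2* and *Gm45444*, of *Grwd1* and *Gm45441*, and of *Syngr4* and *Tmem143*.

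The GluN3 genes encode subunits that bind glycine and lower calcium entry. *Grin3a* spans 184 kb (chr4:49661611-49845744, minus strand) and had 4 peaks. A pair was centred 251 bp upstream and 257 bp downstream of its TSS, another lay 1148 bp downstream in the coding part of exon 1, and the last in intron 6. Between these, 156 kb had no peak, or 84.5% of the gene. *Grin3b*, at 6.48 kb the shortest member (chr10:79970715-79977190, plus strand), had no peak in its body and 12 in its flanks, the nearest centred 7989 bp upstream of its TSS. Of these, 8 were near the starts of *Wdr18*, *Tmem259*, *Gm26243*, *Cnn2* and *Abca7*, 2 inside other genes and 2 outside genes.

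**Figure D2:**
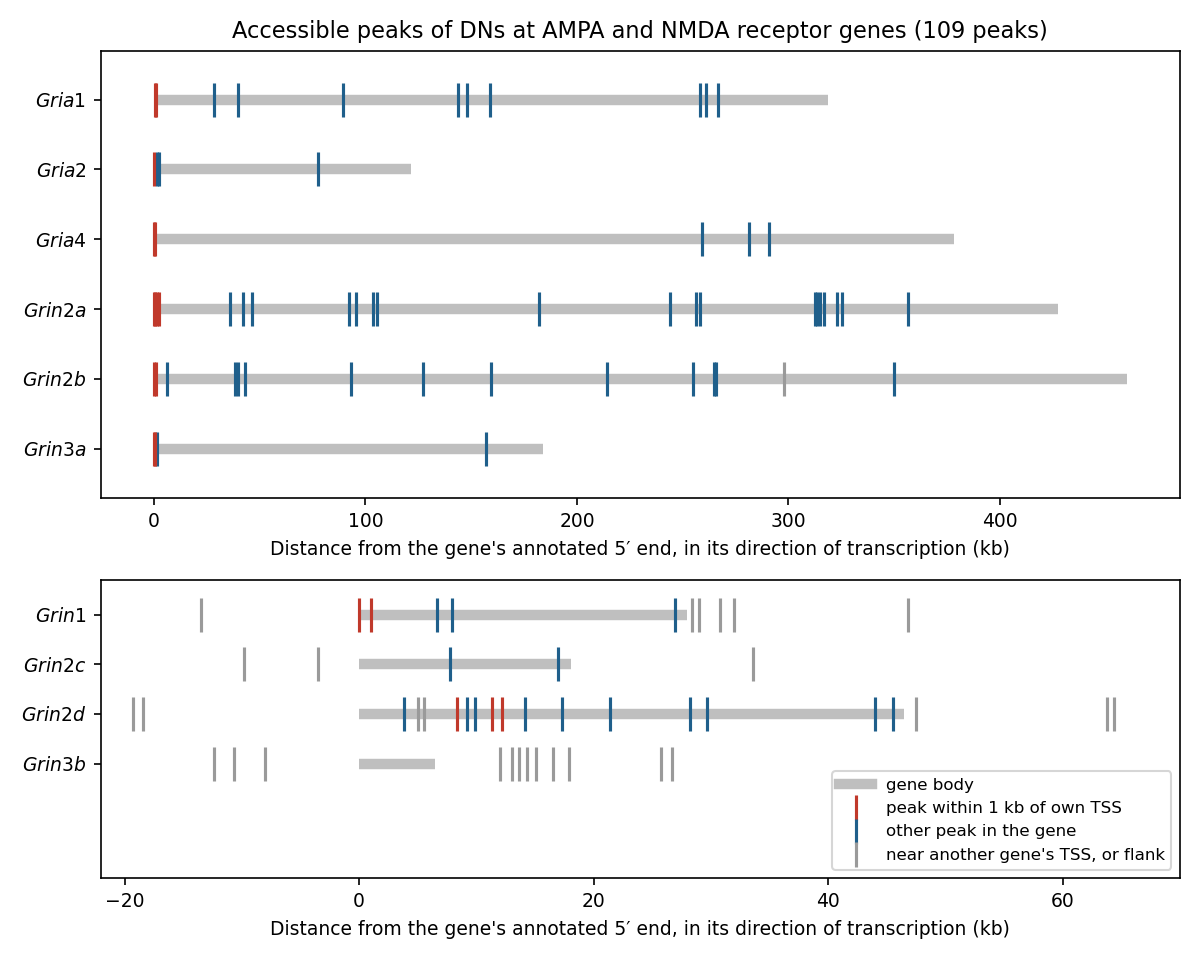
Rows are genes over 100 kb (top) and under 100 kb (bottom), grey bars their annotated bodies and ticks their peaks, against the distance in kb from the annotated 5′ end. Red ticks (near an own TSS) mark the annotated start of 7 genes and lie inside the body of *Grin2d*, whose basic TSSs lie downstream of its annotated 5′ end, *Grin2a* and *Grin2b* carry ticks along most of their length, *Gria4* and *Grin3a* have long stretches without any, and *Grin3b* has grey ticks on both sides only.

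*Grin3b* had an empty body in surroundings rich in peaks. Within 500 kb on each side there were 250 peaks per Mb, more than around any other member (4 to 106 per Mb). Among protein-coding genes under 10 kb, 59.8% had no peak in the body. Of the 222 with at least 12 peaks in the flanks alone, as *Grin3b* had, 25 (11.3%) had none in the body and 35 (15.8%) none near a TSS. This comparison was chosen after the value of *Grin3b* had been seen.

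**Figure D3:**
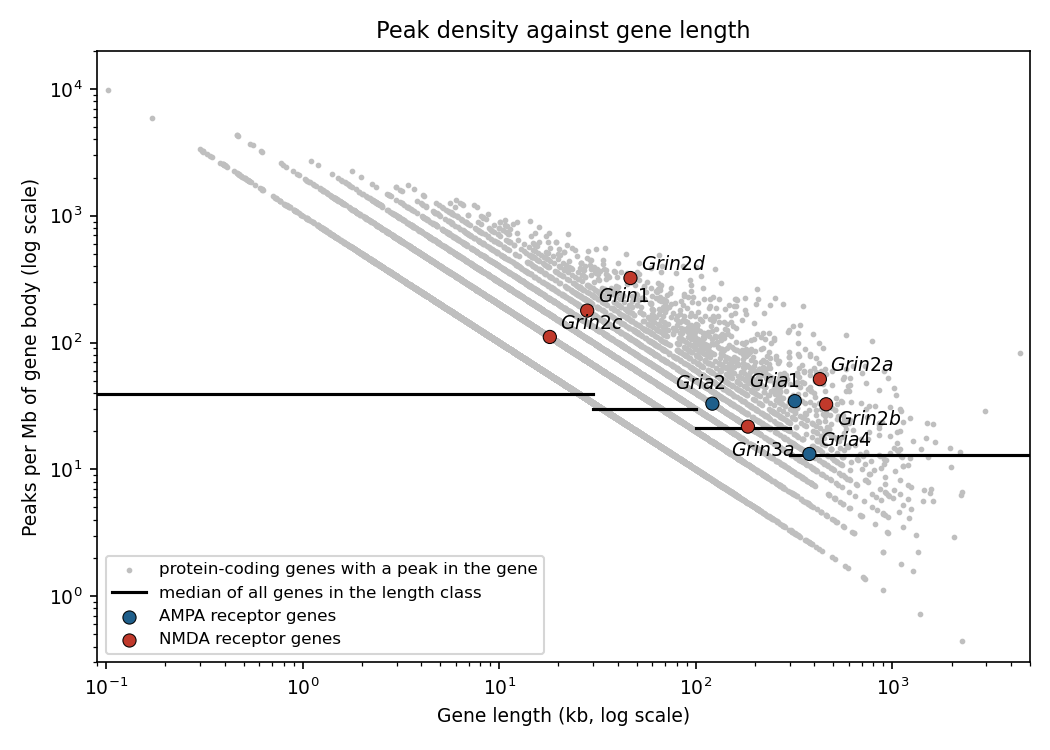
Grey points are protein-coding genes with a peak in the gene body, coloured points the members, and black lines the median of all genes in each length class, with gene length in kb and peaks per Mb on log axes. *Grin2d*, *Grin1* and *Grin2c* lie between 111 and 323 peaks per Mb and above the line, *Gria4* and *Grin3a* on it, and *Grin3b* is not drawn because it has no peak in its body.

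Longer genes have more peaks but fewer per Mb, so density was read within a class of length. The median over the members was 33.7 peaks per Mb of gene body, beside 29.2 over all protein-coding genes. *Grin2d* had 323 peaks per Mb, and 33 of the 5146 genes of 30 to 100 kb (0.641%) were denser, in a class with a median of 29.9. *Grin2a* had 51.4 per Mb, with 8.29% of the genes over 300 kb denser. *Gria1* at 34.5 and *Grin2b* at 32.6 followed, with 14.8% and 16.6% denser, and *Gria4* at 13.2 was at the middle of this class, with 48.3% denser and a median of 12.9.

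In the class of 100 to 300 kb, with a median of 21.3 peaks per Mb, *Gria2* had 33.0, with 32.8% of genes denser. *Grin3a* had 21.7, with 49.3% denser. Under 30 kb, where the median was 39.5, *Grin1* had 179 peaks per Mb with 22.2% denser, and *Grin2c* had 111 with 31.6% denser. In genes this short a single peak moves the density strongly. The 3 AMPA genes analysed had 20 peaks in their bodies and the 7 NMDA genes 63, of which the 4 GluN2 genes made up 54. The lengths of these genes differ too much for a density by receptor.

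Of the 10 genes, 9 were denser in peaks than the 500 kb on each side of them, beside 49.0% of protein-coding genes. These were the 9 genes with a peak in the body. Among protein-coding genes with a peak in the body the share was 76.8%, from 50.9% of those over 300 kb to 90.2% of those under 30 kb, so that for *Grin1* and *Grin2c* it says little. The ratio of the density in the body to that around was highest for *Grin2a* at 3.43 and *Gria4* at 3.30, then 3.04 for *Grin2d* and 3.00 for *Gria2*. Among these 9 it was lowest for *Grin2b* at 1.48, and *Grin3b* without a peak in its body was at 0. For *Gria4*, the density of 13.2 peaks per Mb stood in surroundings of 4 peaks per Mb.

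By position, 18 of the 109 peaks were near an own TSS (16.5%, 95% exact binomial confidence interval 10.1 to 24.8%, covering counting error only). Another 53 were intronic, 4 lay in coding exons, 1 in an untranslated exon and 4 in exons of other transcripts than the principal one. Counted with the intronic peaks was a *Grin2d* peak outside the principal transcript and inside *Kdelr1*, centred 4101 bp upstream of the nearest basic TSS. The remaining 29 were 3 inside a member near the TSS of another gene and the 26 flank peaks, of which 20 were near the TSS of another gene. Counting all genes' TSSs, 41 of the 109 peaks were near one (37.6%, 28.5 to 47.4%), and the interval includes the 33.9% of the whole list. The order turned without the flanks, where 25.3% of the peaks in gene bodies were near a TSS. These are unlike sets, because the share of the list was not computed for gene bodies alone.

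Peaks away from a gene's own start sites were spread over the long genes without a common place. In the 6 members over 100 kb, the first part of 3 equal parts held 19 of 48 such peaks (39.6%, 25.8 to 54.7%), the middle 14 and the last 15. Over 2489 protein-coding genes of this length the first part held 29.4%, which lies inside the interval. The genes differed: *Gria4* had all 3 in the last part, *Grin2b* had 6, 6 and 1, *Grin2a* 7, 4 and 7, and *Gria1* 3 in each.

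Peaks of the receptor genes often lay close together. Of the 109, 81 (74.3%) were centred within 5 kb of another peak, beside 55.4% of all peaks, and the median distance to the nearest peak was 1.47 kb beside 3.53 kb. Near a TSS the shares were 90.2% and 65.8%, and elsewhere 64.7% and 50.0%. Surroundings differed, with 100, 106 and 250 peaks per Mb within 500 kb on each side of *Grin1*, *Grin2d* and *Grin3b*. These genes had 11, 20 and 12 of the 109 peaks, and around the other members there were 4 to 60 peaks per Mb. The shares were not adjusted for this. Base composition was close to that of the list, with a median GC content of 52.8% beside 52.0%. Among the 41 peaks near a TSS of any gene, the observed over expected CpG ratio had a median of 0.630 beside 0.729. Of these 41, 18 were near an own TSS.

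CpG content did not separate the 2 genes without a TSS peak from the others. The CpG ratio within 500 bp of the outermost TSS was 0.710 for *Grin2c* and 0.614 for *Grin3b*. Among protein-coding genes with a ratio of 0.6 to 0.8, 84.9% had a TSS peak. *Gria1* at 0.272 and *Grin2d* at 0.323 had TSS peaks, in a class (0.2 to 0.4) where 23.1% of genes did. *Grin1* had the highest ratio, 0.975, and the others lay between 0.431 for *Grin2b* and 0.724 for *Grin3a*.

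**Figure D4:**
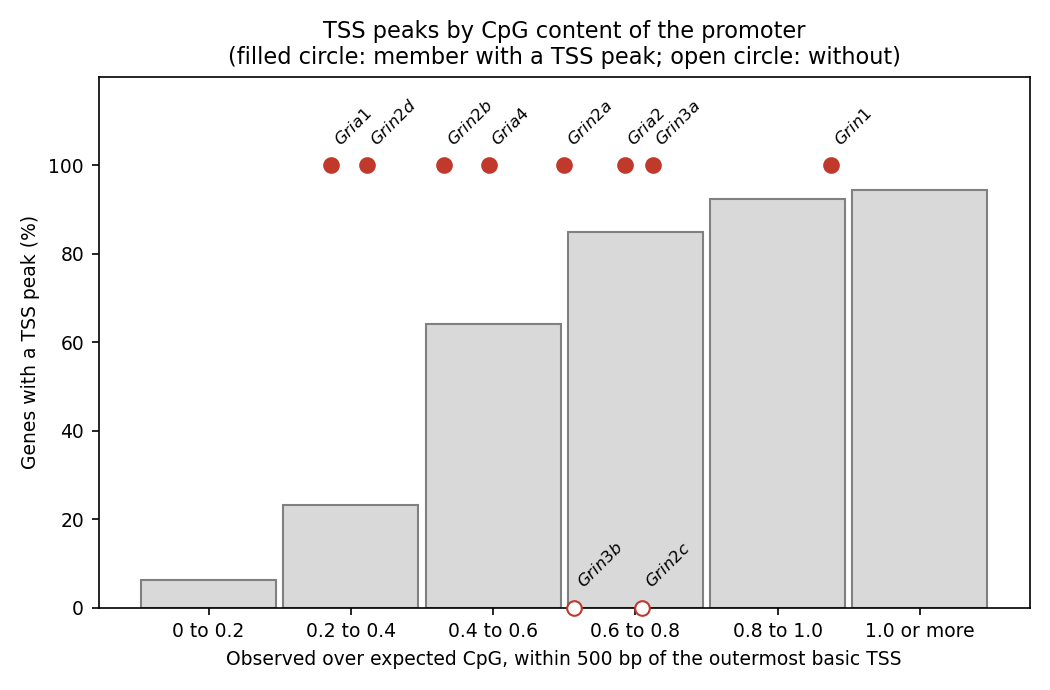
Bars give the percent of protein-coding genes with a TSS peak in each class of observed over expected CpG around the outermost TSS, and circles place the members by their own ratio, filled at the top with a TSS peak and open at the bottom without one. *Grin2c* and *Grin3b* are open in the class with 84.9%, and *Gria1* and *Grin2d* are filled in the class with 23.1%.

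Short words of known transcription factors were searched on both strands of each peak, and a match is a description of sequence, not a binding site. Each word was counted on its own, and none of the 131 matches in the 109 peaks overlapped a match to another word. RE1 was in 3 of the 109 peaks (2.75%, 0.571 to 7.83%) beside 1.08% of the list. All 3 were among the 41 peaks near a TSS (7.32%, 1.54 to 19.9%), beside 1.66% of all peaks near a TSS, and in the central 250 bp none of the 109 peaks held a match, beside 0.578% of the list. The AP-1 word TGANTCA, recognized by Fos and Jun, was in 14 of the 109 peaks (12.8%, 7.20 to 20.6%) beside 12.3% of the list, and in the central 250 bp in 6.42% beside 6.64%. All 14 were among the 68 peaks away from TSSs (20.6%, 11.7 to 32.1%) beside 14.8%. It was in 0 of 41 near a TSS, which allows a share of up to 8.60% by the exact interval (7.32% counted as 3 peaks of 41), beside 7.34% of all such peaks, so that a difference from the list was not detectable with 41 peaks.

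The NBRE word AAAGGTCA, recognized by the Nr4a family to which the DN factor Nurr1 belongs, was in 6 peaks (5.50%, 2.05 to 11.6%) beside 4.00%. In the central 250 bp of the peaks the order turned, with 1.83% beside 2.56% of the list. Of the 6, 4 were in *Grin2a*, 1 in *Grin2b* and 1 in a flank peak of *Grin2d*, near the starts of *Syngr4* and *Tmem143*. The E-box CAGATGG was in 17 peaks (15.6%, 9.36 to 23.8%) beside 11.5%, 7 of them in *Grin2a*. Its share in the central 250 bp was 10.1% beside 6.43%. The forkhead word TGTTTAC, for factors such as Foxa1 and Foxa2, was in 7 (6.42%, 2.62 to 12.8%) beside 7.22%, and all 7 lay away from TSSs. Its order also turned in the central 250 bp, with 5.50% beside 4.21%. The MEF2 word, CTA and TAG with 4 bases between them, was in 5 (4.59%, 1.51 to 10.4%) beside 6.42%, and GC boxes in 32 (29.4%, 21.0 to 38.8%) beside 32.3%.

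NRF-1, whose word GCGCATGCG was in 2 peaks (1.83%, 0.223 to 6.47%) beside 1.22%, matched only at the starts of neighbouring genes of *Grin2d* and *Grin3b*. In the central 250 bp its shares were 0.917% and 1.06%. The CRE word TGACGTCA and the Egr1 word GCGTGGGCG were in none of the 109 peaks, which allows a share of up to 3.33% by the exact interval (2.75% counted as 3 peaks of 109), beside 1.51% and 0.663% of the list. In all, 42 of the 109 peaks held none of the 10 elements. The shares of the list lay inside the members' intervals for every element over all peaks.

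The intronic peaks with 3 kinds of match were both in intron 3 of *Grin2a*, 43153 and 38896 bp from the nearest TSS, and are shown around their matches in the direction of transcription. Capitals mark AP-1, NBRE and E-box words in the first and E-box, AP-1 and MEF2 words in the second, in this order, on either strand and without overlap.
*Grin2a* first (chr16:9949189-9949375, minus strand): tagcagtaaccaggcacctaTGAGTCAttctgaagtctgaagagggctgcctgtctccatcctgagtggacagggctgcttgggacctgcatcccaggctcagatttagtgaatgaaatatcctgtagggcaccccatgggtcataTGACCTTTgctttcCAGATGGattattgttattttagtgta
*Grin2a* second (chr16:9953467-9953623, minus strand): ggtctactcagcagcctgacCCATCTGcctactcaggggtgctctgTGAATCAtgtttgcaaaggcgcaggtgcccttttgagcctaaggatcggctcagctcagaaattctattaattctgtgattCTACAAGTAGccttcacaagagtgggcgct

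Genes that work with these receptors were described by the same counts, to be read beside the 56.4% of all protein-coding genes with a TSS peak and the 70.2% to 82.9% in the length classes over 30 kb. Of 12 AMPA receptor auxiliary proteins, which control trafficking and gating, 10 had a TSS peak. Those without were *Cacng8*, with 6 peaks in the gene and its flanks, and *Cnih3*, with 2. *Gsg1l* had the most, 34, and *Cnih2* and *Shisa9* had 18 each. All 23 genes of a list of NMDA receptor and other synaptic partners had a TSS peak, led by the scaffold genes *Dlg2* with 32 peaks and *Shank2* with 31. This list also holds partners of AMPA receptors, so it does not describe NMDA receptors alone.

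The kainate and delta receptors, other ionotropic glutamate receptors, had a TSS peak at 7 of 7 genes, with 30 peaks at *Grik5* and 26 at *Grid1*. Of the metabotropic receptors, which signal through G proteins, 7 of 8 had one, and *Grm6*, with 2 peaks in its flanks and none in its body, did not. *Grm4* had 12 peaks and *Grm2* 10. The median number of peaks per gene was 11 for the AMPA and NMDA receptor genes, 6.5 for the auxiliary proteins, 13 for the partners, 15 for the kainate and delta receptors and 5 for the metabotropic receptors, beside 2 for all protein-coding genes. Gene lengths differ between these lists, and the medians were not adjusted for them.

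**Figure D5:**
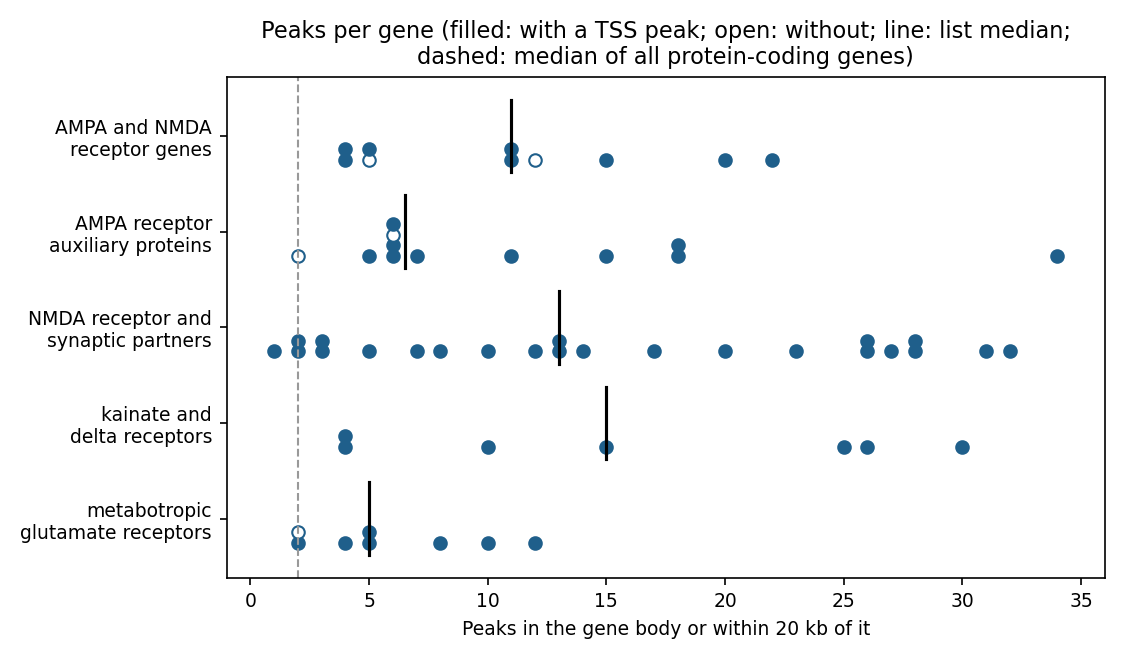
Each circle is a gene, placed by its number of peaks in the gene body or within 20 kb and filled if it has a TSS peak, in 5 rows of glutamate receptor lists. Black lines are list medians, from 5 to 15, all to the right of the dashed median of 2 for all protein-coding genes.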

How the data were processed

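Nuclei of the midbrain VTA of male mice were profiled in 2 DN libraries. The authors mapped reads to mm10 with Cell Ranger ATAC (1.2.0), used ArchR (0.9.1) to remove doublets and low-quality nuclei, chose the DN cluster by gene scores, and called reproducible peaks on pseudobulk replicates. The deposited list holds peak starts and ends in bp, with no score, so peaks near the calling threshold cannot be told from strong ones. It was not stated whether a filter on the number of nuclei per peak had been applied to it. Starts were read as counted from 0 and are printed from 1.

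Gene models were those of GENCODE M21, and bases were read from GRCm38, the assembly behind mm10. A peak belonged to a gene at an overlap of at least 1 bp with its body or 20 kb on each side. A TSS peak had its centre within 1 kb of the start of a basic transcript. The background was 21755 protein-coding genes with a basic transcript on the same chromosomes. The principal transcript was chosen by its APPRIS tag, then its CCDS tag and length. The members, gene lists, markers and words were chosen with earlier results of these data known. Named were all members, genes of the lists without a TSS peak and the 2 with the most peaks in each list, DN markers, and genes whose TSS lies near a member and has a member's peak. *Shisa9* was tied with *Cnih2*, and *Cx3cr1* and *Gfap* were added after their values had been seen. Intervals are exact binomial (Clopper-Pearson, 95%). The counting was tested on simulated data. Scripts ran in Python 3.11.15 with scipy 1.17.1 for intervals, pandas 2.3.3 and numpy 2.4.6 for counting, and matplotlib 3.10.9 for plots.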

Additional observations from a re-analysis of the deposited data

How the results depend on the processing

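Of 28 alternatives, 23 kept a count within 1.5 times of the reported one or a share inside its interval. The number of peaks ran from 83 without flanks to 152 with flanks of 50 kb around the reported 109, and *Grin2c* and *Grin3b* stayed without a TSS peak at 500 bp and at 2 kb. Counting the outermost end of the gene record only left 7 genes with a TSS peak. The share of peaks near any TSS fell from 37.6% to 28.4% at 500 bp and to 25.3% without flanks. The latter is below the 33.9% of the whole list, which was not restricted to gene bodies. Searching only the central 250 bp of each peak changed the share with RE1 from 2.75% to 0, with AP-1 from 12.8% to 6.42% and with NBRE from 5.50% to 1.83%. In the whole list these central shares were 0.578%, 6.64% and 2.56%, and for NRF-1 they were 0.917% at the receptor genes beside 1.06%. The higher shares of RE1, NBRE, AP-1 and NRF-1 at the receptor genes over whole peaks thus rested on matches in the outer part of their peaks. Other words went the other way: the E-box stayed higher in the central 250 bp, at 10.1% beside 6.43%. The forkhead word, lower over whole peaks, was higher there, at 5.50% beside 4.21%. A stricter peak threshold could not be tried, because the list has no scores. No paired analysis was possible because the libraries are pooled in 1 list and no result comes from a test. With 1 list, a receptor gene without a called peak cannot be told from one below the depth of these nuclei.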
